A study of Mus musculus with 10 samples.

Results

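The MHC class I antigen presentation genes were followed in tumours that 4T1 cells, a mammary carcinoma line of the mouse, formed under the skin, collected on day 14. The 10 genes were chosen by symbol: the heavy chains H2-K1 and H2-D1, the light chain B2m, the peptide transporter subunits Tap1 and Tap2, the loading factor Tapbp, the immunoproteasome subunits Psmb8, Psmb9 and Psmb10, and the transactivator Nlrc5. All 10 were found among 52324 symbols, and all 10 passed the filter on low values. The series has 10 libraries in 5 groups of 2, all from 4T1 tumours: a negative control, named PBS in the design text, Free-MK1775, Free-MK1775+NLG919, Lipo-MK1775 and Lipo-MK1775+NLG, which the design text names with NLG919. MK1775 inhibits WEE1, a kinase that restrains entry into mitosis, and NLG919 acts on the IDO1 pathway of tryptophan breakdown. Doses, what the Lipo form consists of, the strain, sex and age of the mice, and whether each library of a group is a different mouse were not stated in the labels, so p-values measure only the spread between these samples.

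Class I molecules show fragments of the proteins a cell makes to CD8 T cells. The proteasome cuts the proteins, and the immunoproteasome is the form in which Psmb8, Psmb9 and Psmb10 replace the constitutive catalytic subunits Psmb5, Psmb6 and Psmb7. Tap1 and Tap2 together carry the peptides into the endoplasmic reticulum, where tapasin (Tapbp) helps to load them onto a heavy chain paired with beta-2 microglobulin (B2m). Interferon gamma, in part through Irf1, and Nlrc5, a transactivator that acts at class I promoters, raise the transcription of most of these genes. Tumours often carry less class I on their surface, which limits what CD8 T cells can see.

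In the GRCm39 coordinates of the deposited table, 7 of the 10 genes lie on chromosome 17. H2-K1 spans chr17:34214991-34219321 on the minus strand, and H2-D1 spans chr17:35481706-35486611 on the plus strand. Tapbp lies at chr17:34134873-34148266. Between these heavy chains, Psmb9 (chr17:34400961-34406738, minus strand), Tap1 (chr17:34406527-34416199), Psmb8 (chr17:34416695-34420428) and Tap2 (chr17:34422501-34435430) fill a stretch of 34470 bases. The first exons of Psmb9 and Tap1 point away from each other and overlap by 212 bases, Tap1 ends 496 bases before Psmb8 begins, and Psmb8 ends 2073 bases before Tap2. B2m lies at chr2:121978167-121983564, Psmb10 at chr8:106662367-106665076 on the minus strand and Nlrc5 at chr8:95160984-95253900. The strand setting of the counting is not stated, so reads from the shared end of Psmb9 and Tap1 cannot be assigned with certainty.

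Promoters are shown for the heavy chains and the light chain, which held several of the elements through which class I genes are known to be switched on together. Tap1 is shown beside them, although of the motifs searched it held the CRE core alone. The 200 bases before each start come from RefSeq on GRCm38.p6, not the build of the deposited table, and 8 of the 10 genes matched; Tap2 and Nlrc5 did not. Capitals mark matches to 6 motifs searched on both strands: the kB palindrome, which is the first run of capitals in H2-K1, an interferon motif of GAAA, 2 free bases and GAAA, a class I interferon motif of GAA, 2 free bases and GAAAC, the CRE core TGACG, the CCAAT box CCAAT and the GAS motif TTCNNNGAA. No marked match overlaps another.
H2-K1, chr17:34000348-34000547, minus strand: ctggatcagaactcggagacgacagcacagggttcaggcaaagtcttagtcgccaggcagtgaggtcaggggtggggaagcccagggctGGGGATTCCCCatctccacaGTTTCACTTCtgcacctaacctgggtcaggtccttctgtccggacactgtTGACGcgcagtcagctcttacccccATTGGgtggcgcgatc
H2-D1, chr17:35262894-35263093, plus strand: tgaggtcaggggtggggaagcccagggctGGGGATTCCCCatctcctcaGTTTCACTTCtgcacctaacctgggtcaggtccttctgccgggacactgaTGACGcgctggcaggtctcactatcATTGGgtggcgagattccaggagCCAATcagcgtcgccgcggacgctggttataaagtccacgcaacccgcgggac
B2m, chr2:122147487-122147686, plus strand: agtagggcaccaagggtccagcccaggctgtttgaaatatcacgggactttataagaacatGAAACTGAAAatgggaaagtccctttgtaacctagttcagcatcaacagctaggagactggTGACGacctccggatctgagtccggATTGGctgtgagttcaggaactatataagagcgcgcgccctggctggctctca
Tap1, chr17:34187356-34187555, plus strand: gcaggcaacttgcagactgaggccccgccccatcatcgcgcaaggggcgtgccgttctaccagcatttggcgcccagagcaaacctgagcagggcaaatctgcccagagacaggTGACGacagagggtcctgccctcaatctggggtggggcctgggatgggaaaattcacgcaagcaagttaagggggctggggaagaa

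The heavy chain promoters were near copies of each other, with 127 of 139 aligned bases identical (91.4%, 0 gaps). Counted to the first base of the match from the base before the start, the kB palindrome stood at -111 in H2-K1 and -171 in H2-D1, and it was present in 0.0274% of 32851 promoters. The class I interferon motif, found in 1.12% of promoters, stood at -91 and -151, and the CRE core, found in 15.7%, at -41 and -101. B2m held the other interferon motif (2.27% of promoters) at -139, the CRE core at -78 and a CCAAT box (29.3% of promoters) at -53. Tap1 held the CRE core at -86, in a window that it shares with Psmb9, whose start lies 226 bases away on the other strand. In the windows that are not printed, Psmb9 held the CRE core at -144 and a CCAAT box at -8. This CRE core is the Tap1 match read from the other strand, not a further site. Tapbp held a CCAAT box at -165 and Psmb8 the GAS motif (5.49% of promoters) at -97. Psmb10 held none of the 6. These are matches of letters, and no binding was measured here.

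Levels are given as rescaled FPKM, the deposited FPKM summed per gene and rescaled in each library to 1000000 over all transcripts that are not mitochondrial. Rescaling matters because mitochondrial transcripts held 64.1% and 56.0% of summed FPKM in the Lipo-MK1775 libraries and 47.3% in Free-MK1775+NLG919 replicate 2, against 2.88% to 4.82% in the other 7 libraries. Those 3 libraries also had fewer genes at 1 or more, 12233 to 12706 against 13565 to 14337. Relative depth, read from the commonest low step of FPKM times length, ran from 1 in Lipo-MK1775 replicate 1 to 1.96 in negative control replicate 1. Without the mitochondrial share it ran from 1 to 5.19, with 1.98 in Free-MK1775+NLG919 replicate 2 and 1.42 in Lipo-MK1775 replicate 2. The Lipo-MK1775 group consists of high-mitochondrial libraries alone, so its treatment and that state cannot be told apart. Libraries of a group correlated at r = 0.899 (Free-MK1775+NLG919) to 0.962, across genes, and none were identical.

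Tumour tissue holds other cells that also carry class I. The 6 epithelial markers fixed for 4T1 summed to 943 to 1895 in all libraries, although Epcam was listed at 0 in Free-MK1775 replicate 1 and Lipo-MK1775 replicate 2. Leukocyte markers (5 of 5 detected) summed to 555 to 1085, macrophage markers (7 of 7) to 1664 to 3864 and T and NK markers (10 of 10) to 21.9 to 107. In such tissue, fewer cells of a type and less RNA per cell cannot be told apart.

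The 10 genes spanned more than 2 orders of magnitude in level. Over the 7 libraries of low mitochondrial share, with assembled transcripts included, B2m averaged 7188 ± 1187 (SD, n = 7). H2-K1 at 3117 ± 769 and H2-D1 at 2709 ± 374 followed and did not differ beyond their spread. Psmb8 at 492 ± 62.2 and Tapbp at 448 ± 30.7 came next and also overlapped. Psmb10 at 253 ± 54.5 and Psmb9 at 194 ± 31.6 overlapped within 1 SD over libraries, but Psmb10 was above Psmb9 within each of the 7. Likewise Tap1 at 142 ± 17.4 and Tap2 at 116 ± 14.2, the partners in a single transporter, overlapped over libraries, with Tap1 above Tap2 within each of the 7. Nlrc5, the regulator, was lowest at 43.0 ± 4.91.

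**Figure D1:**
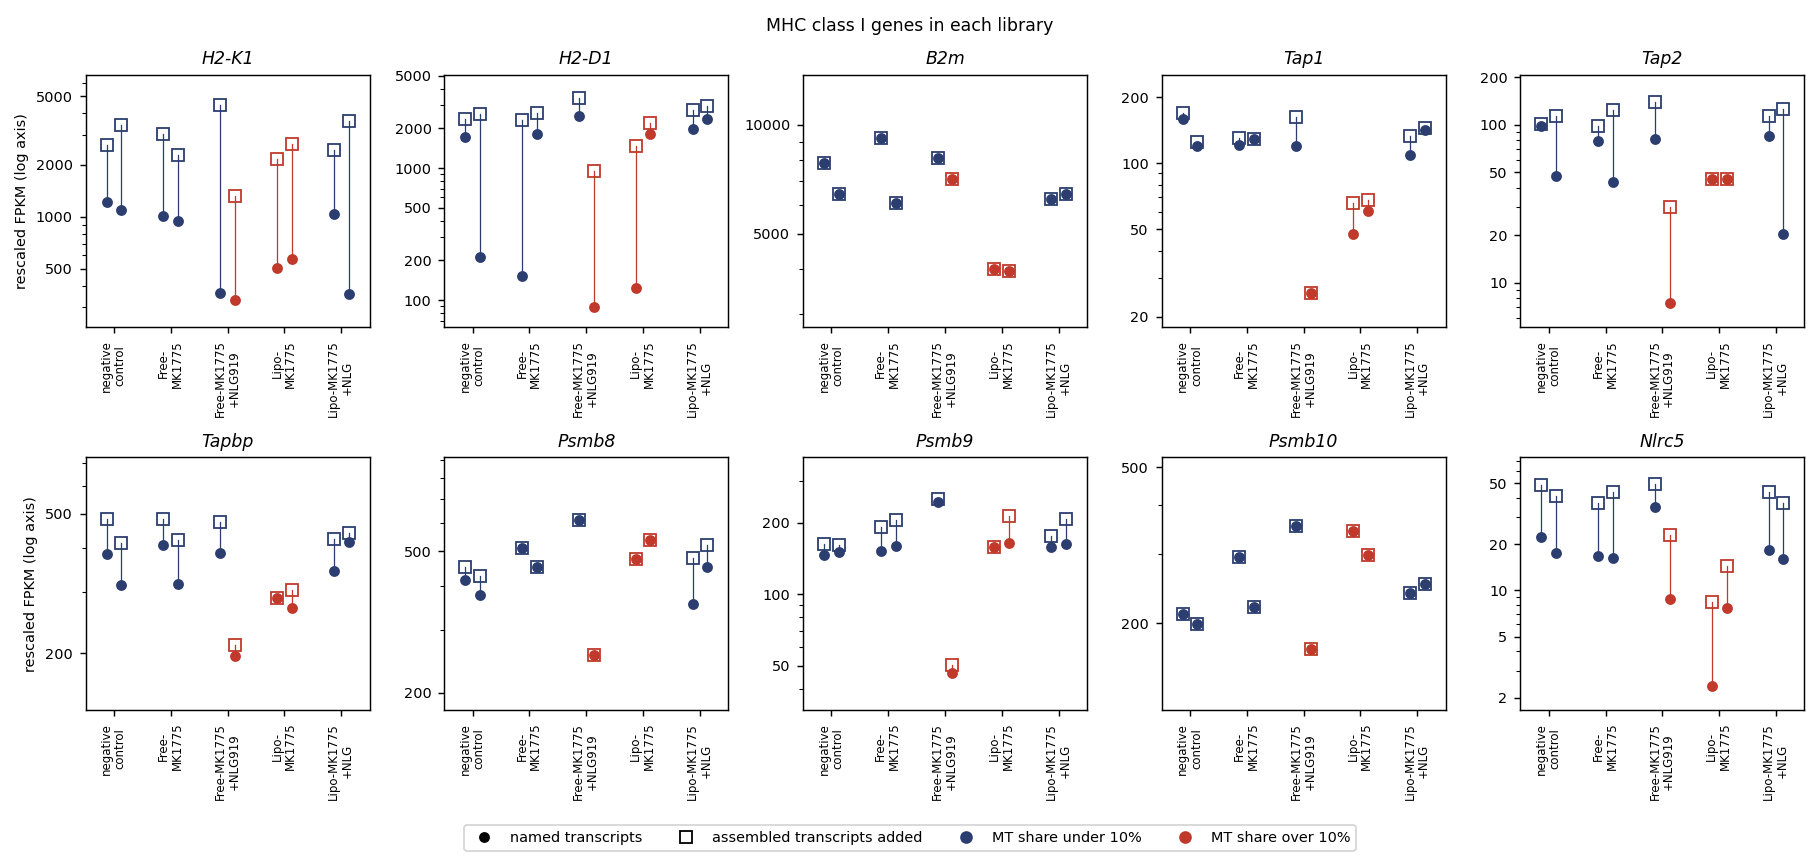
Rescaled FPKM (log axis) of each of the 10 genes in the 10 libraries by group; filled circles sum the transcripts that carry the gene's symbol, open squares add assembled transcripts of the same locus, and red marks libraries with a mitochondrial share over 10%. H2-D1 named values jump between 89.3 and 2465 within groups while the open squares stay between 947 and 3403, and B2m is lowest in both Lipo-MK1775 libraries, at 4001 and 3947.

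The heavy chain values depended on which transcripts were summed. In the negative control, the named H2-D1 transcripts came to 1725 in replicate 1 and 213 in replicate 2. In Free-MK1775 they came to 152 and 1812, in Free-MK1775+NLG919 to 2465 and 89.3, in Lipo-MK1775 to 123 and 1814, and in Lipo-MK1775+NLG to 1987 and 2334. In 4 of the 5 groups the replicates thus lay far apart.

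An assembled transcript without a symbol held what the named ones lacked. It has 7 exons and 2633 bases, at chr17:35481501-35486611 over H2-D1, and stood at 2120.0 in negative control replicate 2, 1964 in Free-MK1775 replicate 1, 824 in Free-MK1775+NLG919 replicate 2 and 1283 in Lipo-MK1775 replicate 1. In the other 6 libraries it stood at 0 to 38.9. A named H2-D1 transcript of 2238 bases was at 0 in exactly the 4 libraries where the assembled one was high, and at 376 to 1002 in the other 6. Assembled transcripts made up 90.6% to 93.5% of H2-D1 in those 4 libraries and 17.0% to 30.1% elsewhere.

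With them added, H2-D1 stood at 2372 and 2584 in the negative control, 2324 and 2591 in Free-MK1775, 3403 and 947 in Free-MK1775+NLG919, 1476 and 2186 in Lipo-MK1775, and 2728 and 2964 in Lipo-MK1775+NLG. The controls, Free-MK1775 and Lipo-MK1775+NLG then lay within a narrow range, and only Free-MK1775+NLG919 replicate 2 and Lipo-MK1775 replicate 1 fell below 2000 among the 10. Over the 7 libraries of low mitochondrial share the coefficient of variation of H2-D1 went from 62.6% to 13.8%. The same step took Tap2 from 43.2% to 12.2%, H2-K1 from 41.0% to 24.7% and Nlrc5 from 33.5% to 11.4%. It was lower with assembled transcripts for 8 of the 8 genes that have any; B2m and Psmb10 have none.

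Assembled transcripts made up most of the summed FPKM of H2-K1 in all 10 libraries, at 53.5% to 91.9%. A short one of 587 bases and 4 exons (chr17:34215080-34216131) alone made up 45.2% to 61.1% of that sum in each library. A short transcript adds more FPKM per read, also to the mean of H2-K1 given above. In read steps, FPKM times length over the low step, the balance varied between libraries. Named transcripts held 20956 of 31245 steps in negative control replicate 1 and 6728 of 40904 in Free-MK1775+NLG919 replicate 1. With assembled transcripts H2-K1 stood at 2613 and 3417 in the negative control, 3026 and 2278 in Free-MK1775, 4453 and 1315 in Free-MK1775+NLG919, 2169 and 2647 in Lipo-MK1775, and 2429.9 and 3600.0 in Lipo-MK1775+NLG. Every group's range overlapped that of the controls. 4T1 comes from BALB/c mice, whose class I alleles differ from those of the reference strain, and H2-K1 and H2-D1 are near copies of each other and of other heavy chains, so how reads were shared among them is uncertain; the part of either in these values was not tested.

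**Figure D2:**
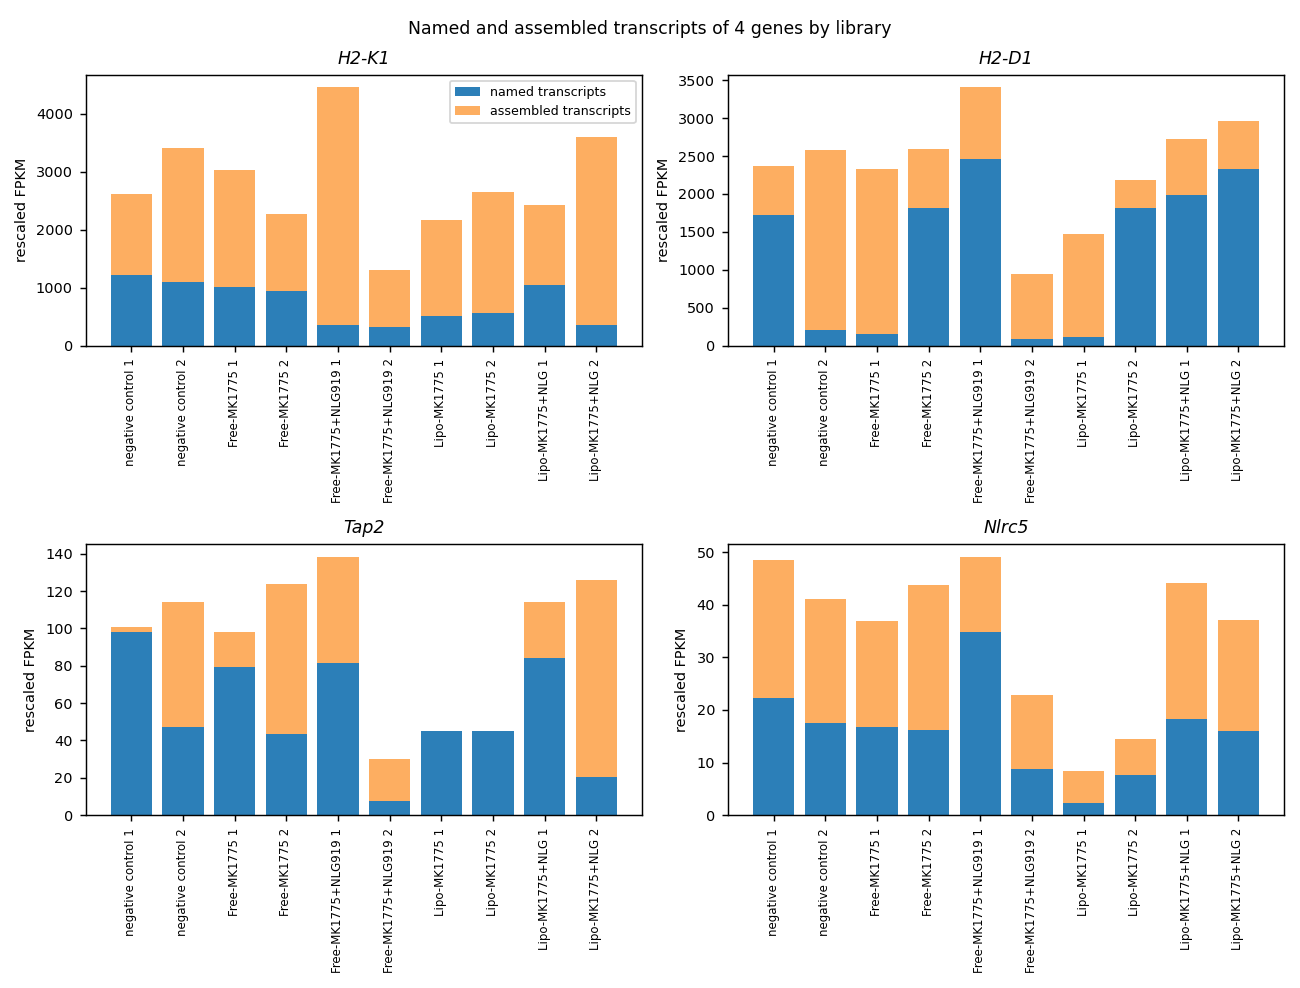
Rescaled FPKM of H2-K1, H2-D1, Tap2 and Nlrc5 in each of the 10 libraries, as bars stacked from transcripts with a symbol (blue) and assembled transcripts without one (orange). The orange part of H2-D1 is 90.6% to 93.5% in 4 libraries and 17.0% to 30.1% in the other 6, that of H2-K1 is 53.5% to 91.9%, and that of Tap2 is 0% in both Lipo-MK1775 libraries.

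Each comparison was tested with limma over 15469 genes, first on the transcripts that carry a symbol and then with the assembled ones added. Called means a p under 0.05 after Benjamini-Hochberg adjustment over all genes, and changes are differences of log2(rescaled FPKM + 1). Counts of members or pathway genes at an unadjusted p under 0.05 are given without the share of all genes at that p, which is not reported here. Without that share these counts cannot be read against a background, and they are not a result about class I.

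Free-MK1775 alone left class I close to the control. With assembled transcripts the 10 changes ran from -0.19 for H2-K1 to 0.31 for Psmb10, with standard errors of 0.25 for B2m to 0.63 for Tap1. B2m stood at 9189.9 and 6092 against 7828 and 6440.0 in the controls, and the groups overlapped. Psmb8 stood at 511 and 450.5 against 452 and 424 with assembled transcripts, and Nlrc5 at 36.9 and 43.8 against 48.5 and 41.1. The limma fit called 0 of 10, with 0.0129% of all genes called, and 0 of 10 had an unadjusted p under 0.05. With assembled transcripts it also called 0 of 10 (0.00638% of genes), 0 at an unadjusted p under 0.05.

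Lipo-MK1775+NLG was as near to the control when assembled transcripts were added. With assembled transcripts the changes ran from -0.16 for B2m to 0.26 for Psmb10, with 5 genes higher and 5 lower and a median of 0.07 (all genes -0.03). B2m was at 6227 and 6452, Tap1 with assembled transcripts at 134 and 145, Tap2 at 114 and 126 and Nlrc5 at 44.1 and 37.2. Each of these overlaps the controls, at 7828 and 6440 for B2m, 169 and 126 for Tap1, 101 and 114 for Tap2, and 48.5 and 41.1 for Nlrc5. On named transcripts H2-K1 changed by -0.92 (SE 0.41), with 1043 and 357 against 1214 and 1100 in the controls. With assembled transcripts it changed by -0.01 (SE 0.48). The named H2-D1 change of 1.83 (SE 1.85) rests on the control library in which the assembled transcript took its place. The limma fit called 0 of 10 (0.00646% of genes), 0 at an unadjusted p under 0.05, and with assembled transcripts 0 of 10 (0% of genes), 0 at an unadjusted p under 0.05.

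Free-MK1775+NLG919 held, in its own replicates, most of the highest and most of the lowest class I values of the series. With assembled transcripts, replicate 1 was the highest of the 10 libraries for 7 of the 10 genes and replicate 2 the lowest for 8. The exceptions at the low end were Nlrc5, lowest in Lipo-MK1775 replicate 1, and B2m, lowest in Lipo-MK1775 replicate 2.

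The transporter and Psmb9 differed most between those replicates. Tap1, with assembled transcripts, was at 163 and 25.6, a log2 difference of -2.62, Psmb9 at 251 and 50.4 (-2.30) and Tap2 at 138 and 30.1 (-2.16). H2-D1 differed by -1.84, H2-K1 by -1.76, Psmb8 by -1.25, Tapbp by -1.16, Nlrc5 by -1.07 and Psmb10 by -1.04. B2m differed by -0.19, with 8087 in replicate 1 and 7097 in replicate 2. The median difference over all genes was -0.72, and 9 of the 10 genes lay below it. By length, on named transcripts, the medians of all genes ran from 0 under 1000 bases to -1.05 over 5000, and B2m, at 860 bases, lay below that of its bin.

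Genes of the interferon arm went the same way between these libraries. Irf1, an activator of class I promoters, was at 196 and 56.0, against 111 to 258 in the other 8 libraries. Ifng, interferon gamma itself, was at 1.80 and listed at 0, against 0.234 to 2.21 elsewhere. All these Ifng values are low, near the filter value of 1. Summed markers also separated them: MHC class II and dendritic markers, 8 of 8 detected, summed to 6402 and 407, against 2198 to 4568 in the other 8 libraries, and T and NK markers to 107 and 21.9, against 46.1 to 94.9. Neutrophil and erythroid markers went the other way, with sums of 957 and 1877 and of 339 and 896. Replicate 2 is also the library with a mitochondrial share of 47.3%. The part of these in the class I values was not tested.

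As a group, Free-MK1775+NLG919 gave no called class I gene against the control. The median change was -0.35 on named transcripts (all genes -0.44) and -0.43 with assembled transcripts (all genes -0.47). Limma called 0 of 10 (0.0194% of genes), with 1 of 10, H2-K1, at an unadjusted p under 0.05, and with assembled transcripts 0 of 10 (0.0957% of genes), 0 at an unadjusted p under 0.05. The sign of that median differed with the replicate kept. Without replicate 2 it was 0.44 on named transcripts (all genes -0.09) and 0.41 with assembled ones (all genes -0.12), where 0 of 10 were lower and 0 called. Without replicate 1 it was -1.36 on named transcripts (all genes -0.80), with 6 of 10 and 41.9% of all genes called, and -1.13 with assembled ones (all genes -0.85), with 8 of 10 and 55.6% called. Either fit leaves a single library in the group and assumes that it varies like the other groups, so these calls compare that library with the controls.

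Lipo-MK1775 showed lower Nlrc5, B2m and transporter values than the control, as it did for most genes. Immunoproteasome values were near or above the control. Nlrc5 with assembled transcripts was at 8.36 and 14.4, against 48.5 and 41.1 in the controls, and fell by 1.93 on the log2 scale (SE 0.38). B2m was at 4001 and 3947, below the 6092 to 9189.9 of the other 8 libraries, and fell by 0.84 (SE 0.24 on named transcripts). Tap1 with assembled transcripts was at 65.9 and 68.1 against 169 and 126, a change of -1.11 (SE 0.63), and Tap2 at 45.1 and 45.1 against 101 and 114, a change of -1.23 (SE 0.53). For each of them the Lipo-MK1775 libraries lay below both controls. With assembled transcripts this held for 6 of the 10 genes (Tapbp and H2-D1 as well) and for 73.4% of all genes. Above both controls lay 2 of the 10 (Psmb8 and Psmb10) and 7.66% of all genes. While 39.1% of all genes were called lower, limma called neither Tap1 (adjusted p = 0.166) nor Tap2 (adjusted p = 0.0839).

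The immunoproteasome subunits had changes above 0, and none passed the test. Psmb10 was at 344 and 299 against 211 and 199 in the controls, a change of 0.64 (SE 0.32, limma adjusted p = 0.155). Psmb8 was at 474 and 537 against 452 and 424 with assembled transcripts (0.20, SE 0.34), and Psmb9 at 159 and 214 against 163 and 161 (0.18, SE 0.56). Tapbp, at 287 and 304 against 484 and 414, changed by -0.60 (SE 0.33). The heavy chains changed by -0.46 for H2-D1 (SE 0.48) and -0.32 for H2-K1 (SE 0.48), within their spread. Endothelial markers were lower in the same libraries: the 4 of 4 detected summed to 23.1 and 14.2. They summed to 99.9 and 69.4 in the controls and to 27.4 in Free-MK1775+NLG919 replicate 2. Limma called 3 of the 4 lower, Pecam1, Cdh5 and Kdr, with 19.4% of all genes called lower (median of the 4 -1.87, all genes -0.78). MHC class II and dendritic markers summed higher in Lipo-MK1775, to 3141 and 2947 against 2425 and 2198 in the controls. The part of these cells in the class I values was not tested.

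On named transcripts limma called 1 of 10, B2m lower, at an adjusted p of 0.0440, while 21% of all genes were called (19.4% lower). At an unadjusted p under 0.05 stood 4 of 10. With assembled transcripts 2 of 10 were called, both lower, with 41.6% of genes called (39.1% lower, as above): Nlrc5 at an adjusted p of 0.0121 and B2m at 0.0269. Of the 10 genes 7 were lower by either measure, with a median of -0.47 on named transcripts against -0.78 over all genes and -0.53 against -0.84 with assembled ones. Relative to the median of all genes, B2m therefore changed by -0.06 on named transcripts and by 0.01 with assembled ones, Nlrc5 by -1.16 and -1.09, Psmb8 by 1.13 and 1.05 and Psmb10 by 1.42 and 1.49. Under a median-of-ratios scaling between libraries, which centres most genes at no change, B2m changed by 0.05 (adjusted p = 0.953), and Psmb8 (1.23, adjusted p = 0.0378) and Psmb10 (1.53, adjusted p = 0.0268) were called higher. Quantile normalization gave B2m -2.50 (adjusted p = 0.0455) and FPKM as deposited -1.29 (adjusted p = 0.0155), and B2m was called in 13 of 33 alternatives.

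The Nlrc5 call with assembled transcripts was lost without negative control replicate 1 (adjusted p = 0.0989) or 2 (0.0638) and without Lipo-MK1775 replicate 1 (-1.57, adjusted p = 0.0738), and kept without each of the other 7. The B2m call on named transcripts was kept without either Free-MK1775+NLG919 library and lost without each of the other 8. With assembled transcripts B2m was also kept without either Free-MK1775 library, and lost without either control (adjusted p = 0.160 and 0.0785), Lipo-MK1775 (0.0964 and 0.0923) or Lipo-MK1775+NLG library (0.0545 and 0.0535). With the mitochondrial share as a covariate, Nlrc5 changed by -0.46 (adjusted p = 0.680) and B2m by -0.64 (adjusted p = 0.597). Within groups, that share differed widely only in Free-MK1775+NLG919 (2.88% and 47.3%). The covariate fit therefore rests mostly on that unlike pair, and it cannot separate the share from the treatment in Lipo-MK1775. In the 3 libraries of high mitochondrial share Nlrc5 had the fewest reads of the 10 genes: with assembled transcripts, its value corresponds to about 209 read steps in Lipo-MK1775 replicate 1, 386 in replicate 2 and 561 in Free-MK1775+NLG919 replicate 2, against 2060 to 3735 in the 7 libraries of low mitochondrial share.

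**Figure D3:**
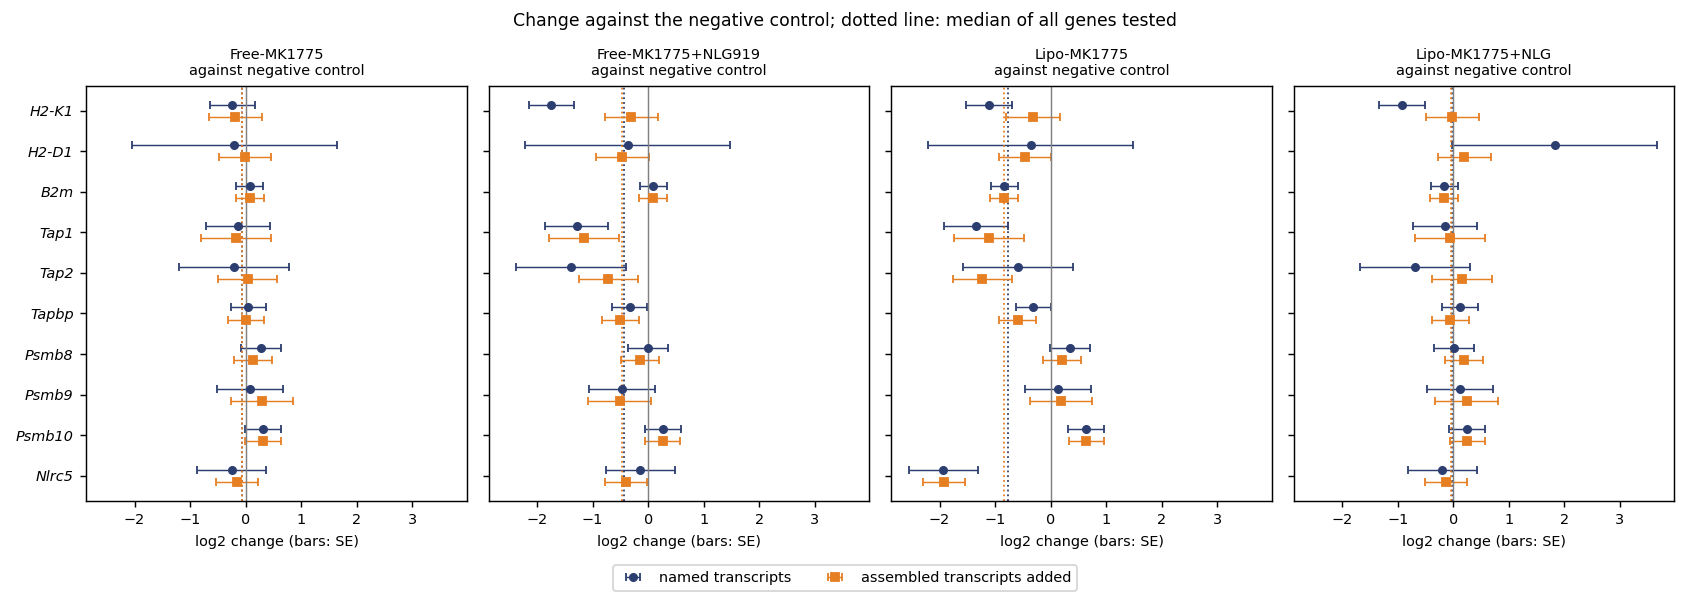
Log2 change with its standard error for the 10 genes against the control in each treated group, on named transcripts and with assembled ones, with the median over all genes as a line. Free-MK1775 and Lipo-MK1775+NLG with assembled transcripts stay between -0.19 and 0.31, and Lipo-MK1775 shows Nlrc5 at -1.93 and Psmb10 at 0.64.

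The change of a gene in Lipo-MK1775 varied with the length of its transcripts over the whole table. Genes with transcripts under 1000 bases had a median log2 change of -0.08 and genes over 5000 bases one of -1.24, with -0.53, -0.81 and -1.03 in the bins between them. In Free-MK1775+NLG919 the medians ran from 0.10 to -0.85, and in Free-MK1775 and Lipo-MK1775+NLG from 0.04 to -0.18 and from 0.05 to -0.15. The length of the 10 genes ran from 860 bases for B2m, through 1294 for Psmb10, 1324 for H2-K1, 1403 for Psmb9, 1579 for Psmb8, 2087 for H2-D1 and 2615.5 for Tapbp, to 2888 for Tap1, 3449 for Tap2 and 4140.2 for Nlrc5. On named transcripts B2m (-0.84), H2-K1 (-1.11), Tap1 (-1.34) and Nlrc5 (-1.94) lay below the median of their length bin, and Psmb10, Psmb9, Psmb8, H2-D1 (-0.36), Tapbp (-0.31) and Tap2 (-0.59) above it. With assembled transcripts Tap2 was at -1.23 and H2-K1 at -0.32. The part of length in the class I values was not tested.

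**Figure D4:**
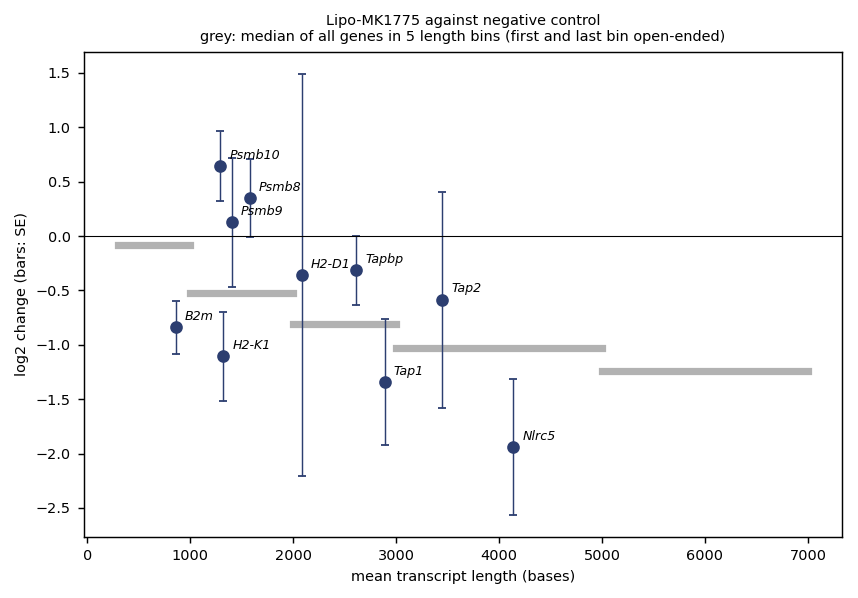
Log2 change in Lipo-MK1775 against the control by mean transcript length in bases for the 10 genes on named transcripts, with bars for the standard error and grey lines for the median of all genes in 5 length bins. The median goes from -0.08 under 1000 bases to -1.24 over 5000 bases; B2m, H2-K1, Tap1 and Nlrc5 lie below their bins and the other 6 genes above theirs.

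The comparisons between treated groups asked whether the form of MK1775 or the added NLG919 moved class I. Against Free-MK1775, Lipo-MK1775 gave 0 of 10 called on named transcripts (3.39% of genes), 2 of 10 at an unadjusted p under 0.05. With assembled transcripts 2 of 10 were called (29.5% of genes, 27.7% lower): Nlrc5 fell by 1.78 (limma adjusted p = 0.0257), from 36.9 and 43.8 to 8.36 and 14.4, and B2m fell by 0.91 (adjusted p = 0.0330). Both calls were kept without either Free-MK1775+NLG919 library and lost without each of the other 8, at adjusted p of 0.0513 to 0.164 for Nlrc5 and 0.0582 to 0.150 for B2m. For Lipo-MK1775+NLG against Lipo-MK1775 limma called 0 of 10 (5.34% of genes), with 2 of 10 at an unadjusted p under 0.05. With assembled transcripts 1 of 10 was called (35.8% of genes, 33.8% higher): Nlrc5 rose by 1.79 (adjusted p = 0.0234), to 44.1 and 37.2. That call was lost without Lipo-MK1775 replicate 1 (1.43, adjusted p = 0.117) or 2 (2.15, 0.0688) or Lipo-MK1775+NLG replicate 1 (1.67, 0.173) or 2 (1.91, 0.112), and kept without each of the other 6. Tap2 stood at 45.1 and 45.1 in Lipo-MK1775 and at 114 and 126 with NLG, a change of 1.39 that missed the threshold (adjusted p = 0.0624).

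Free-MK1775+NLG919 against Free-MK1775 gave 0 of 10 called by limma (0% of genes), with 1 of 10, H2-K1, at an unadjusted p under 0.05, and with assembled transcripts 0 of 10 (0% of genes), 0 unadjusted. Lipo-MK1775+NLG against Free-MK1775+NLG919 gave 0 of 10 (0.0129% of genes) and 0 unadjusted, and with assembled transcripts 0 of 10 (0.00638% of genes) and 0 unadjusted. Medians over the 10 were -0.33 (all genes -0.39) and 0.52 (all genes 0.42) on named transcripts. Both comparisons hold the unlike replicates described above.

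The interaction asked whether NLG919 went with a different change on Lipo-MK1775 than on Free-MK1775. On named transcripts limma called 0 of 10 (21% of genes), with 2 of 10 at an unadjusted p under 0.05. With assembled transcripts 2 of 10 were called, with 44.6% of genes (42.3% higher): Nlrc5 at 2.04 (adjusted p = 0.0211) and Tap2 at 2.15 (adjusted p = 0.0429). Tap1 at 2.03 and Tapbp at 1.06 missed the threshold (adjusted p = 0.0836 for each). The median over the 10 was 0.96, against 1.20 over all genes. With the mitochondrial share as a covariate the Nlrc5 interaction was -0.00 and that of Tap2 -1.53 (adjusted p = 0.433). That fit rests mostly on the unlike pair of Free-MK1775+NLG919 libraries, so it cannot separate the share from the treatments.

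Ratios of the inducible to the constitutive catalytic subunit within a library cannot be changed by scaling. Log2 of Psmb10 over Psmb7, the subunits with trypsin-like activity, was -0.17 and -0.41 in the controls, 0.34 and -0.24 in Free-MK1775, 0.66 and 1.19 in Free-MK1775+NLG919, 1.42 and 1.10 in Lipo-MK1775, and -0.08 and 0.00 in Lipo-MK1775+NLG. The 3 libraries of high mitochondrial share hold the 3 highest values. In them Psmb7 was at 75.0 to 139.8, against 223 to 264 in the other 7, while Psmb10 was at 171 to 344 against 199 to 353, so the ratio differed more through Psmb7. The treated libraries averaged 0.55 ± 0.64 (SD, n = 8) and the controls -0.29 ± 0.17 (SD, n = 2), a difference of 0.84 with a two-sided exact permutation p of 0.111 (0.500 adjusted over 9 tests).

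Log2 of Psmb8 over Psmb5, the chymotrypsin-like pair, was 1.57 and 1.21 in the controls, 1.87 and 1.52 in Free-MK1775, 1.71 and 1.59 in Free-MK1775+NLG919, 2.02 and 2.15 in Lipo-MK1775 and 0.95 and 1.34 in Lipo-MK1775+NLG. Libraries with NLG919 averaged 1.40 ± 0.34 (SD, n = 4) and those without 1.89 ± 0.27 (SD, n = 4), a difference of -0.49 (exact permutation p = 0.0857, 0.500 adjusted). These ratios are on named transcripts. With assembled ones Lipo-MK1775+NLG stood at 1.38 and 1.55 and the other treated libraries were unchanged, so that difference is smaller. Log2 of Psmb9 over Psmb6, the pair at the position that is caspase-like in the constitutive form, ran from -0.64 to -0.02 in 9 libraries and was -2.27 in Free-MK1775+NLG919 replicate 2, where Psmb9 was at 46.4 and Psmb6 at 224. None of the 9 tests passed after adjustment; 8 against 2 libraries allow no p under 0.0222 and 4 against 4 none under 0.0286.

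**Figure D5:**
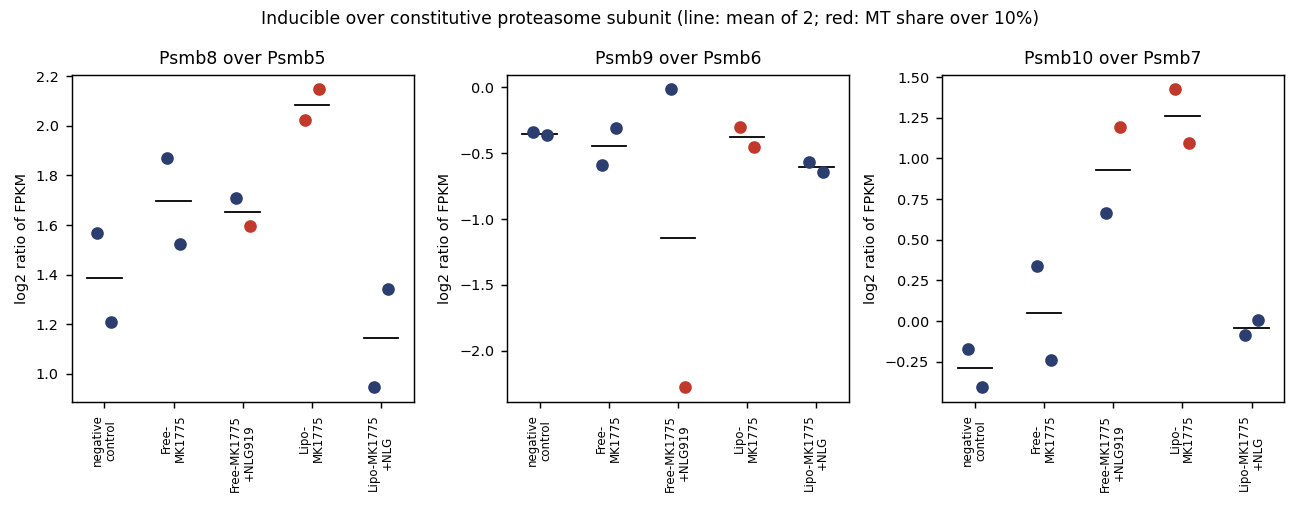
Log2 ratio of inducible to constitutive proteasome subunit in each library by group for the 3 pairs; lines are group means and red marks a mitochondrial share over 10%. Psmb10 over Psmb7 is highest in the 3 red libraries, at 1.10 to 1.42, and Psmb9 over Psmb6 is -2.27 in Free-MK1775+NLG919 replicate 2 against -0.64 to -0.02 elsewhere.

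The other genes of the pathway were counted in 6 lists, of which 54 of 58 genes were tested: other heavy chains (15 of 19), loading and trimming (8 of 8), proteasome activator and chaperones (5 of 5), constitutive subunits (3 of 3), transcription factors of class I (12 of 12) and interferon gamma signalling (11 of 11). On named transcripts limma called 0 of 54 in Free-MK1775, in Free-MK1775+NLG919 and in Lipo-MK1775+NLG against the control. Of all genes it called 0.0129%, 0.0194% and 0.00646%. At an unadjusted p under 0.05 stood 1, 13 and 1 of the 54. In Lipo-MK1775 1 rose and 4 fell (7.41% of the 54, against 19.4% of all genes called lower), and with assembled transcripts 0 rose and 13 fell (24.1%, against 39.1% of all genes). All 12 transcription factors and all 11 interferon genes had a change below 0 there, with medians of -0.97 and -0.91 against -0.78 over all genes. Most genes were lower there, as 67.2% of all genes lay below both controls on named transcripts.

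The 4 with the smallest adjusted p on named transcripts were H2-T22, Jak1, Ifngr1 and Psme3. Ifngr1, a chain of the interferon gamma receptor, was at 30.6 and 31.9 against 78.2 and 74.8 in the controls and fell by 1.26 (limma adjusted p = 0.0281). Jak1, the kinase bound to that receptor, was at 26.8 and 45.0 against 143 and 119 and fell by 1.88 (adjusted p = 0.0280). Psme3, a subunit of the nuclear proteasome activator, was at 60.7 and 63.4 against 136 and 124 and fell by 1.05 (adjusted p = 0.0303). All 3 were called lower with assembled transcripts too. H2-T22, a nonclassical heavy chain, was at 85.7 and 83.5 against 21.7 and 25.2 and rose by 1.81 (adjusted p = 0.0219) on named transcripts. With assembled transcripts H2-T22 stood at 160.4 and 217 against 156 and 173, a change of 0.18 (adjusted p = 0.726), so this call belongs to the named transcripts alone.

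Between treated groups, Ifngr1 fell by 1.21 in Lipo-MK1775 against Free-MK1775 (limma adjusted p = 0.0491). There 0 pathway genes rose and 1 fell (1.85% of the 54, against 3.39% of all genes called). In Lipo-MK1775+NLG against Lipo-MK1775, Ifngr1 rose by 1.17 (adjusted p = 0.0476) and H2-T22 fell by 1.32 (adjusted p = 0.0424). No other pathway gene was called there, with 5.34% of all genes called. With assembled transcripts H2-T22 changed by -0.18 in that comparison (adjusted p = 0.721). In the interaction 5 rose (9.26% of the 54, against 21% of all genes called) and 0 fell, with Jak1 at 2.62 (adjusted p = 0.0401), Ifngr1 at 1.57 (0.0411), the heavy chain H2-Q6 at 3.67 (0.0413) and Psme3 at 1.24 (0.0423) leading by adjusted p. H2-Q6 was at 8.11 in Free-MK1775+NLG919 replicate 2, against 36.5 to 115 in the other 9 libraries. With assembled transcripts 19 of 54 were called higher in the interaction (35.2%, against 42.3% of all genes), 8 higher in Lipo-MK1775+NLG against Lipo-MK1775 (14.8% against 33.8%), and 10 lower in Lipo-MK1775 against Free-MK1775 (18.5% against 27.7%), where 1 was higher.

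How the 10 varied together also depended on the transcripts summed. Over the 7 libraries of low mitochondrial share, each gene was set against the mean of the other 9 on a standardised log2 scale. With assembled transcripts Pearson's r was 0.91 for Psmb8, 0.82 for Psmb10, 0.76 for Psmb9, 0.67 for H2-D1, 0.64 for H2-K1, 0.58 for Tap1, 0.48 for Tapbp, 0.43 for Tap2, 0.38 for B2m and 0.24 for Nlrc5. On named transcripts the order differed, with Nlrc5 highest at 0.74. Psmb8 was at 0.68, B2m at 0.66, Psmb10 at 0.66, Psmb9 at 0.53, Tapbp at 0.48 and Tap2 at 0.36. H2-D1 was at 0.08, Tap1 at 0.01 and H2-K1 at -0.55. The genes most like the mean of the 10, among 7988 genes, were Chmp4b (r = 0.98), Elp5 (0.97), Ifi47 (0.96), Mndal (0.95), Pop5, Ermp1, Ifit3 and Psma2 (0.93 each), over the same 7 libraries on named transcripts. Without the 2 libraries farthest from the median, Free-MK1775+NLG919 replicate 1 and negative control replicate 1, r over the other 5 was 0.69 for Ifit3, 0.77 for Psma2, 0.78 for Pop5 and 0.90 to 0.98 for the rest. Ifi47, Mndal and Ifit3 are interferon-induced genes and Psma2 is a proteasome subunit. These correlations describe 7 libraries that share scaling and groups, and limma called none of the 8 genes in any of the 9 comparisons. Mndal, Ermp1 and Ifit3 had an unadjusted p under 0.05 in the 4 that hold Lipo-MK1775, and none had in the other 5. Their directions differed: in Lipo-MK1775 against the control Mndal changed by -0.98 and Ermp1 by -1.39, but Ifit3 by 1.01.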

How the data were processed

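RNA was measured in 10 libraries, 2 per group, from subcutaneous 4T1 tumours. Per the labels, RNA came from an RNeasy kit and libraries from a NEBNext Ultra kit. Per the submitters' processing notes, FastQC, Trim Galore, HISAT2 and StringTie were used on GRCm39; versions and the strand setting are not given in the sources used for this. The deposited values are FPKM per transcript, fragments scaled by the authors to transcript length and to each library's mapped fragments, mitochondrial ones included.

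From 161762 transcripts, those with a symbol were summed per gene and rescaled to 1000000 over rows not on the mitochondrial genome. As an alternative, 14868 of 21051 transcripts without a symbol were added to the overlapping symbol of their locus and 6183 left out. Genes at 1 or more in at least 2 libraries were tested: 15469, or 15677 with the assembled ones. All libraries entered 1 limma fit (limma 3.58.1, R 4.3.3, variance trend, a mean per group) of log2(value + 1), so changes of low genes are understated. Its two-sided p-values were adjusted over all genes in each of 9 comparisons. The fit was tested on simulated data. Ratios used exact permutation tests. Tables and figures were made with Python 3.11.15, pandas 2.3.3, numpy 2.4.6 and matplotlib 3.10.9.

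The members, lists and tests were chosen with earlier results of these data known. Named in the text are the 10 members, up to 4 called pathway genes a comparison with the smallest adjusted p, Psmb5, Psmb6, Psmb7, Ifng and Irf1, and the 8 genes most like the members among those with a mean of at least 10; 1 further gene of the rule is not reported here. Alternatives changed the scaling, filter, pseudocount, trend, groups fitted, covariate, block or libraries kept. A further 3 were chosen after seeing the data: assembled transcripts without the high-mitochondrial libraries, with the mitochondrial share as covariate, and with each library left out. Summed FPKM outside the mitochondrial genome ran from 203338 to 367635 per library. Read counts were not used here, so depth is known only in relative terms. Cell type markers were summed per list; B cell markers came to 1.40 to 5.02, endothelial to 14.2 to 99.9, fibroblast to 108 to 458, erythroid to 135 to 896 and neutrophil to 547 to 2315, with Csf3r and Ly6g at 0 in Lipo-MK1775 replicate 1.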

Additional observations from a re-analysis of the deposited data

Results flagged for a closer look

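Both results named here are interactions of form and NLG919 with assembled transcripts added, in which the change that goes with NLG919 differed between Lipo-MK1775 and Free-MK1775 by limma's test of the difference. In this interaction 44.6% of all genes were called (42.3% higher) and the median of all genes was 1.20, so 2 of 10 members called is below the share of all genes. For Nlrc5 the difference was 2.04 (adjusted p = 0.0211): the values were 36.9 and 43.8 in Free-MK1775, 49.2 and 22.8 in Free-MK1775+NLG919, 8.36 and 14.4 in Lipo-MK1775 and 44.1 and 37.2 in Lipo-MK1775+NLG. Leaving out Free-MK1775 replicate 2 (1.92, adjusted p = 0.0827), Lipo-MK1775 replicate 1 (1.68, 0.0675), Lipo-MK1775 replicate 2 (2.40, 0.0534), Lipo-MK1775+NLG replicate 1 (1.92, 0.0834) or Lipo-MK1775+NLG replicate 2 (2.16, 0.0579) ended the call.

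For Tap2 the difference was 2.15 (adjusted p = 0.0429): the values were 98.2 and 124 in Free-MK1775, 138 and 30.1 in Free-MK1775+NLG919, 45.1 and 45.1 in Lipo-MK1775 and 114 and 126 in Lipo-MK1775+NLG. The call was kept without Free-MK1775+NLG919 replicate 1 (3.23) or replicate 2 (1.06, adjusted p = 0.0093), and lost without each of the other 8 libraries, at adjusted p of 0.0581 to 0.121. In both results the low values lie in the 3 libraries of high mitochondrial share, and a fit with that share as covariate gave -0.00 for Nlrc5 and -1.53 for Tap2. The covariate fit rests mostly on the unlike pair of Free-MK1775+NLG919 libraries and cannot separate the share from the treatments.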

How the results depend on the processing

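In Free-MK1775 and Lipo-MK1775+NLG against the control, 0 of 10 members were called under every alternative run and with each library left out (range 0 to 0). The other comparisons depended on the processing. For Lipo-MK1775 against the control, 1 member was called in the main analysis (21% of all genes), 4 on FPKM as deposited, 2 by median-of-ratios scaling, 0 with no filter, 2 with a filter at 10, 2 with assembled transcripts (41.6%), 0 with no trend and 5 with only the groups compared. Against Free-MK1775 the 0 members (3.39% of genes) became 4 on FPKM as deposited, 1 with the filter at 10, 2 with assembled transcripts (29.5%), 1 with the mitochondrial covariate by either measure and 2 with only the groups compared. For Lipo-MK1775+NLG against Lipo-MK1775 the 0 (5.34% of genes) became 3 as deposited, 1 by median of ratios, 1 with assembled transcripts (35.8%), 1 with the covariate by either measure and 4 with only the groups compared. For the interaction the 0 (21% of genes) became 2 as deposited, 1 with the filter at 10 and 2 with assembled transcripts (44.6%). The number of all genes called moved with the setting too, as given below, so these counts are not a result about class I alone. The cause of these shifts was not tested.

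Leaving out each library gave 0 to 8 members for Free-MK1775+NLG919 against the control (with 55.6% of all genes called where it was 8), 0 to 6 for Lipo-MK1775 against the control (64.0%), 0 to 5 for Lipo-MK1775 against Free-MK1775 (61.3%), 0 to 9 between the forms with NLG919 (54.4%), 0 to 8 for Free-MK1775+NLG919 against Free-MK1775 (52.0%), 0 to 6 for Lipo-MK1775+NLG against Lipo-MK1775 (63.8%) and 0 to 8 for the interaction (69.0%). Each highest number came without Free-MK1775+NLG919 replicate 1, with assembled transcripts, and for some comparisons also without replicate 2; a lone library left in a group is assumed to vary like the other groups. Without the 3 high-mitochondrial libraries, comparisons with Lipo-MK1775 have no value.

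Numbers of genes called moved as well. For Lipo-MK1775 against the control the 3251 became 5955 as deposited, 833 by median of ratios (447 higher, 386 lower, against 251 and 3000), 650 by quantile scaling (322 and 328), 822 with no filter, 6520 with assembled transcripts, 10 with the covariate and 6782 with only the groups compared. Without either control it was 1, without Lipo-MK1775 replicate 1 it was 8, and without either Free-MK1775+NLG919 library 7601 and 7586. The median change of all genes was -0.78, -1.01 as deposited and -0.06 by median of ratios. Lipo-MK1775 against Free-MK1775 went from 524 to between 20 (covariate) and 5965 (as deposited), Lipo-MK1775+NLG against Lipo-MK1775 from 826 to between 14 and 6764, and the interaction from 3249 to between 0 (covariate) and 6991 (assembled transcripts).

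Replicate numbers did not pair the samples: deviations of same-numbered libraries correlated at -0.20 to 0.07 over 10 pairs of groups. With the replicate number as a block, members called in Lipo-MK1775 against the control went from 1 to 0 and genes called from 3251 to 2115; for the other 3 comparisons with many calls the genes went from 524 to 60, from 826 to 41 and from 3249 to 72.

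Of 3070 single changes under an alternative, 394 had another sign than in the main analysis, most with no call in either. A call was gained with the same sign in 155 and lost in 19, and in 7 the sign differed with a call in at least 1 of the fits. Those 7 were B2m in Lipo-MK1775 against the control by median of ratios (0.048), the Psmb9 interaction without Free-MK1775+NLG919 replicate 2 (-0.65, against 1.72 without replicate 1) and, with assembled transcripts, Psmb10 (0.51) and Nlrc5 (0.80) between the forms with NLG919 and the Psmb8 interaction (0.89), all without Free-MK1775+NLG919 replicate 1, and Tap2 in Lipo-MK1775+NLG against Lipo-MK1775 without replicate 1 or 2 of Free-MK1775+NLG919 (1.39). With the covariate Psmb9 was called higher in Lipo-MK1775 against the control (3.01, limma adjusted p = 0.0438) and against Free-MK1775 (2.94, 0.0320), and lower in Lipo-MK1775+NLG against Lipo-MK1775 (-2.95, 0.0433). Without the covariate its change in Lipo-MK1775 against the control was 0.12 on named transcripts and 0.18 with assembled ones. The covariate values extend the difference between the unlike Free-MK1775+NLG919 libraries to Lipo-MK1775, so they are not a measured rise of Psmb9.

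None of the 9 ratio tests passed under any alternative, but their smallest possible p leaves little room to pass after adjustment, so this says nothing about stability. With each library left out, on named transcripts, differences in log2 Psmb8 over Psmb5 ran from 0.08 to 0.44 (treated against control), -0.24 to 0.16 (Lipo against free) and -0.62 to -0.34 (with against without NLG919). These ranges do not cover the choice of transcripts, as assembled ones raise Psmb8 in Lipo-MK1775+NLG. For Psmb9 over Psmb6 they ran from -0.38 to -0.06, -0.19 to 0.57 and -0.75 to 0.00, and for Psmb10 over Psmb7 from 0.71 to 0.95, -0.15 to 0.36 and -0.51 to 0.05.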
